A study of Mus musculus with 3 samples.

Results

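TNF superfamily genes encode ligands and receptors, and they were followed here in CD4 T cells grown under 3 conditions. The members were a fixed list of 39 gene symbols, 17 ligands and 22 receptors, chosen by family membership but with earlier results of these data known. Of these, 37 (15 ligands and all 22 receptors) had a microarray probe set of their own, among 19938 genes with one in the series. The remaining pair, Tnfsf12 and Tnfsf13, were matched only by a probe set that also matches Tnfsfm13, which differed by no more than 0.0039 on the log2 scale between arrays and was left out of all counts. Splenic T cells were taken from OT-II mice (strain B6.Cg-Tg(TcraTcrb)425Cbn/J), whose transgenic T cell receptor recognises an ovalbumin peptide. CD4+ cells with a naive surface phenotype (CD25-, CD62L high, CD44 low) were stimulated with that peptide on splenic antigen-presenting cells depleted of T cells and taken from Il23a-/- mice, so the transgene and the presenting cells' lack of Il23a were common to every group. Th0 cultures had no cytokine added, Th22 cultures had IL-6, and Th17 cultures had IL-6 together with TGFβ. The cells were purified on magnetic columns at 60 hours, and each condition was measured on 1 array. No label used here states the age or number of the mice.

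TNF superfamily ligands are mostly trimeric membrane proteins, some of which are also released in soluble form. Their receptors fall into those with a cytoplasmic death domain, which can recruit FADD and caspase-8, those that recruit TRAF adaptors and activate NF-κB and MAP kinases, and decoys that bind ligand without signalling. On activated T cells, OX40, 4-1BB, GITR, CD27 and CD30 act as costimulatory receptors, while CD40 ligand delivers help to B cells and dendritic cells, and Fas ligand can end responses by killing activated cells.

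The deposited values were differences from each probe set's own median over the 3 arrays, taken here as log2, so at least 1 array of the 3 always reads 0 and a gene's absolute level is not known. Every fold below rests on that log base, and would be larger with natural logs. A gene was counted where a pair of arrays differed by at least 2-fold. With 1 array per condition no difference has a replicate check and no test was run, and in such bulk samples a smaller share of expressing cells and less RNA per cell cannot be told apart. Each measured member rested on 1 probe set. Between separate probe sets of the same gene, available for 999 other genes, the difference varied with an SD of 0.19 on the log2 scale between Th17 and Th0. The SD was 0.18 between Th17 and Th22 and 0.14 between Th22 and Th0. Without genes whose probe sets showed no difference, the SDs were 0.22, 0.21 and 0.16 in the same order. These SDs cover probe error and not the spread between cultures. The Th17 array had the widest spread of values (SD 0.28, against 0.17 for Th0 and 0.12 for Th22). All 11 measured pan T cell genes lay within 2-fold in every comparison, but 11 of them read higher in Th22 than in Th0 (median 0.11 log2) and 9 read lower in Th17 than in Th22 (median -0.24 log2). All 16 markers of myeloid and dendritic cells also did, and 11 of them were equal on all 3 arrays.

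Where a ligand passed 2-fold, it was lower in Th17 or Th22 than on the array it was compared with, while receptors past 2-fold lay on both sides as deposited. After quantile normalization every receptor past 2-fold was on the higher side, since Tnfrsf9 and Tnfrsf18, the 2 lower ones, came under 2-fold. In Th17 against Th0, 6 of 15 ligands were at least 2-fold lower and 0 were higher, while 5 of 22 receptors were at least 2-fold higher and 2 were lower. Over all genes, 1.56% were at least 2-fold lower and 1.47% at least 2-fold higher in this comparison, 3.03% together. In Th22 against Th0, 4 ligands were lower and 2 receptors were higher, with 0 ligands higher and 0 receptors lower, where 0.261% of all genes were lower and 0.547% higher (0.808% together). In Th17 against Th22, 3 ligands were lower and 0 higher (1, Tnfsf13b, after quantile normalization, which forces equal spread on the arrays), and 3 receptors were higher and 2 lower, where 1.5% of all genes were lower and 1.1% higher (2.61% together). The median difference of the ligands was -0.39 log2 in Th17 against Th0 and -0.63 in Th17 against Th22, and 0 in Th22 against Th0. The median of the receptors, like that of all genes, was 0 in each comparison. These comparisons share arrays, so their counts are not independent of each other. In all, 13 of the 37 measured members were 2-fold apart in at least 1 comparison, against 3.7% of all genes, and 7 members were equal on all 3 arrays, as were 37.7% of all genes.

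**Figure D1:**
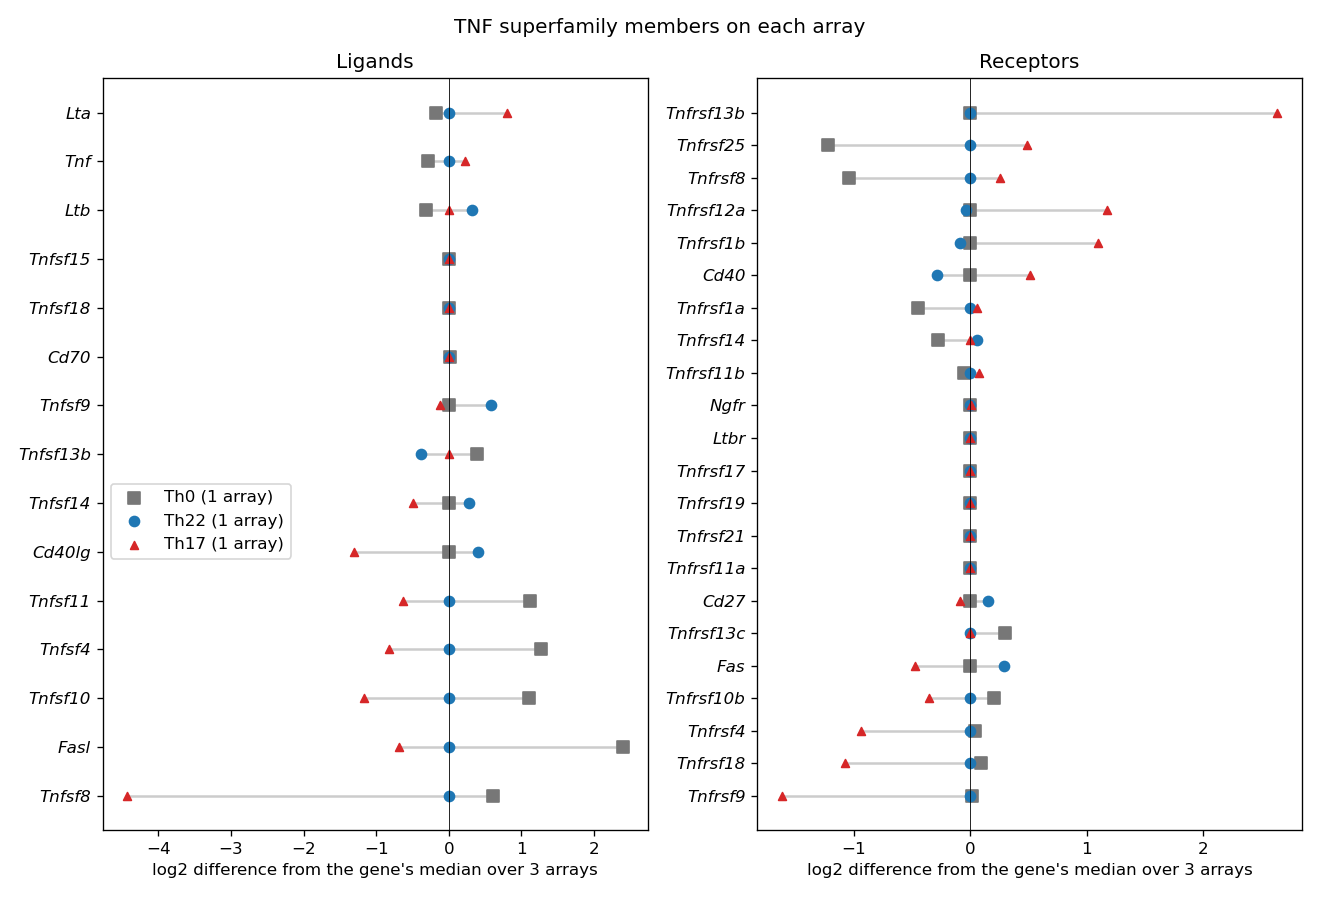
Values of the 15 measured ligands (left) and 22 measured receptors (right) on each array, as log2 differences from the gene's median over the 3 arrays. Squares are Th0, circles Th22 and triangles Th17, 1 array each, and grey lines join the lowest and highest array. Tnfsf8 extends furthest to the left, at -4.43 in Th17, and Tnfrsf13b furthest to the right, at 2.64 in Th17.

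**Figure D2:**
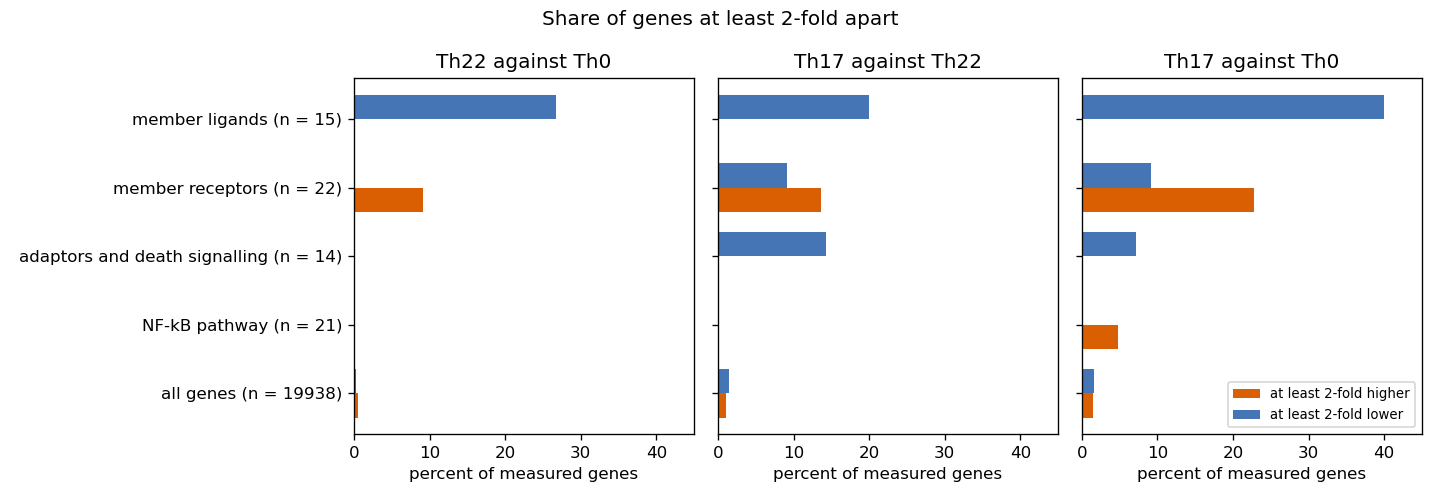
Percentage of measured genes at least 2-fold higher (orange) or lower (blue) in each of the 3 comparisons, for the ligands, the receptors, both signalling gene lists and all genes. The ligand bars lie on the lower side, with 6 of 15 ligands in Th17 against Th0 (after quantile normalization, Tnfsf13b also passed 2-fold on the higher side in Th17 against Th22).

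Among the ligands, Tnfsf8 had the widest range. It encodes CD30 ligand, which binds the receptor CD30. Its value was 0.61 in Th0, 0 in Th22 and -4.43 in Th17, so the Th17 array stood far below the others, which lay within 1.53-fold of each other. Against Th0, Tnfsf8 in Th17 was lower by 32.9-fold, rank 6 from the lowest of 19938 genes, and against Th22 by 21.5-fold, rank 5 from the lowest.

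The death ligand gene Fasl had a different shape. It encodes Fas ligand, which triggers apoptosis through Fas. Its value was 2.40 in Th0, 0 in Th22 and -0.69 in Th17, so Th0 stood above both arrays of cells given IL-6. Against Th0, Fasl was lower by 5.27-fold in Th22, rank 10 from the lowest, and by 8.49-fold in Th17, while Th17 and Th22 lay 1.61-fold apart. Of 8 markers of CD8 and NK cells, cells that also make Fas ligand, 5 read lower in Th22 than in Th0 and 0 higher, with a median difference of -0.20 log2. Eomes read -0.79 and Klrk1 -0.57, and Cd74, a class II presentation gene, -0.79. Cd74 did not stand for its list. Of the 7 measured class II genes, 4 had negative differences between these arrays and 2 had positive ones, H2-Ab1 (0.68) and H2-Oa (0.06). The median of that list was -0.04 log2. None of these passed 2-fold as deposited, but Eomes (2.11-fold) and Cd74 (2.09-fold) did after quantile normalization, and their part in the Fasl difference was not tested. Tnfsf10 encodes TRAIL, another death ligand, and stood at 1.11 in Th0, 0 in Th22 and -1.17 in Th17. Th22 lay below Th0 by 2.15-fold and Th17 below Th22 by 2.25-fold (2.68-fold and 1.63-fold after quantile normalization).

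Tnfsf4 and Tnfsf11 also stood highest in Th0. Tnfsf4 encodes OX40 ligand, a costimulatory ligand best known on antigen-presenting cells, and its values were 1.27 in Th0, 0 in Th22 and -0.83 in Th17. It was 2.41-fold lower in Th22 and 4.28-fold lower in Th17 than in Th0. Tnfsf11 encodes RANK ligand, which drives osteoclast formation and supports dendritic cells, and stood at 1.12 in Th0, 0 in Th22 and -0.63 in Th17. It was 2.18-fold lower in Th22 and 3.37-fold lower in Th17 than in Th0. Fasl, Tnfsf4, Tnfsf8, Tnfsf10 and Tnfsf11 thus all ran downward from Th0 through Th22 to Th17 with the ends at least 2-fold apart, an order shown by these 5 of 15 ligands, by 2 of 22 receptors (Tnfrsf9 and Tnfrsf18) and by 1.16% of all genes. Of the 5 ligands, all but Tnfsf8 were at least 2-fold higher in Th0 than on both other arrays. In Th22 against Th0, Tnfrsf9 and Tnfrsf18 differed by only -0.02 and -0.09 log2, less than the SD of 0.14 between probe sets of a gene.

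Cd40lg departed from that order. It encodes CD40 ligand, the main contact signal from helper T cells to B cells, and stood at 0 in Th0, 0.41 in Th22 and -1.31 in Th17. It was highest in Th22 and was 3.29-fold lower in Th17 than in Th22 and 2.48-fold lower than in Th0. Tnfsf9 (4-1BB ligand) and Tnfsf14 (LIGHT, a ligand of HVEM and the lymphotoxin-β receptor) had the same shape with each difference under 2-fold. Tnfsf9 stood at 0 in Th0, 0.58 in Th22 and -0.12 in Th17, and Tnfsf14 stood at 0, 0.28 and -0.50 in the same order.

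The genes of TNF and the lymphotoxins did not reach 2-fold, and Th0 was the lowest array for all 3. Tnf, which encodes the inflammatory cytokine TNF, stood at -0.29 in Th0, 0 in Th22 and 0.22 in Th17. Lta, which encodes lymphotoxin α, stood at -0.18, 0 and 0.80, and at 1.98-fold higher in Th17 than in Th0 it lay just short of 2-fold. Ltb, which encodes the membrane partner lymphotoxin β, stood at -0.32, 0.33 and 0, highest in Th22. Tnfsf13b, which encodes the B cell survival factor BAFF, stood at 0.39, -0.38 and 0, lowest in Th22 by 1.70-fold against Th0. Cd70, which encodes the ligand of CD27, differed by at most 0.01 log2, and Tnfsf15 (TL1A) and Tnfsf18 (GITR ligand) were equal on all 3 arrays. For these an equal level cannot be told from no detected signal.

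Of the receptors, Tnfrsf13b differed most. It encodes TACI, a receptor for BAFF and APRIL known mainly from B cells. Its value was -0.0055 in Th0, 0 in Th22 and 2.64 in Th17, so it stood apart on the Th17 array alone. It was 6.23-fold higher in Th17 than in Th22, rank 26 from the highest of all genes, and 6.25-fold higher than in Th0. Of 9 measured B cell markers, Cd79a, Cd79b, Pax5, Cd22 and Cr2 were equal on all 3 arrays, and the other BAFF receptor genes, Tnfrsf13c and Tnfrsf17, were equal between Th17 and Th22. Only Ebf1 among these markers passed 2-fold, at 0 in Th0, 1.62 in Th22 and -1.05 in Th17. It was 6.36-fold lower in Th17 than in Th22 and 3.07-fold higher in Th22 than in Th0. Equal values cannot be told from no detected signal, and the part of B cells in the Tnfrsf13b difference was not tested.

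Tnfrsf25 and Tnfrsf8 were low in Th0. Tnfrsf25 encodes DR3, a death domain receptor for TL1A that costimulates T cells, and stood at -1.22 in Th0, 0 in Th22 and 0.49 in Th17. It was 2.33-fold higher in Th22 and 3.27-fold higher in Th17 than in Th0. Tnfrsf8 encodes CD30 and stood at -1.04, 0 and 0.25, being 2.06-fold higher in Th22 and 2.46-fold higher in Th17 than in Th0. In both genes the arrays of cells given IL-6 lay within 2-fold of each other. With Tnfrsf13b, they were the 3 receptors that ran upward from Th0 through Th22 to Th17 with the ends at least 2-fold apart, an order seen in 1.03% of all genes and in 0 of 15 ligands. For Tnfrsf13b the step from Th0 to Th22 was only 0.0055 log2, below the SD of 0.14 between probe sets of a gene.

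Tnfrsf1b and Tnfrsf12a were higher in Th17 than on both other arrays. Tnfrsf1b encodes TNF receptor 2, a TRAF-binding receptor found on activated and regulatory T cells, and stood at 0 in Th0, -0.09 in Th22 and 1.10 in Th17. It was 2.29-fold higher in Th17 than in Th22 and 2.15-fold higher than in Th0. Tnfrsf12a encodes Fn14, the TWEAK receptor, and stood at 0, -0.03 and 1.17, being 2.31-fold and 2.26-fold higher. Tnfrsf1a, the gene of the death domain receptor TNFR1, was within 2-fold throughout, at -0.45, 0 and 0.06.

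The costimulatory receptor genes Tnfrsf9, Tnfrsf18 and Tnfrsf4 had the opposite shape, lowest in Th17 and nearly equal in Th0 and Th22. Tnfrsf9 encodes 4-1BB and stood at 0.02 in Th0, 0 in Th22 and -1.62 in Th17. It was 3.07-fold lower in Th17 than in Th22 and 3.11-fold lower than in Th0. Tnfrsf18 encodes GITR, which regulatory T cells carry at high levels, and stood at 0.09, 0 and -1.08. Th17 lay below Th0 by 2.25-fold. Tnfrsf4 encodes OX40 and stood at 0.04, 0 and -0.94, a difference of 1.97-fold from Th0 that lay just short of 2-fold.

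The remaining receptors were within 2-fold in every comparison. Cd40, which encodes the receptor of CD40 ligand, stood at 0 in Th0, -0.28 in Th22 and 0.51 in Th17. Fas, which encodes the death receptor CD95, stood at 0, 0.29 and -0.47, and Tnfrsf10b, which encodes the TRAIL receptor DR5, at 0.20, 0 and -0.35. Tnfrsf14 (HVEM) stood at -0.28, 0.06 and 0, Cd27 at 0, 0.15 and -0.09, and Tnfrsf13c (BAFF receptor) at 0.30, 0 and 0. Tnfrsf11b, which encodes the decoy osteoprotegerin, and Ngfr, a neurotrophin receptor gene, ranged over at most 0.13 log2. Ltbr, Tnfrsf11a (RANK), Tnfrsf17 (BCMA), Tnfrsf19 and Tnfrsf21 were equal on all 3 arrays.

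Each ligand was then set beside its receptor, over 23 of 26 known pairs with both genes measured. In Th17 against Th0, 1 pair had both genes past 2-fold, Tnfsf8 and Tnfrsf8, and they went in opposite directions, the ligand by -5.04 log2 and the receptor by 1.30. No pair had both genes past 2-fold in the same direction. In 7 pairs only the ligand passed. Fasl differed by -3.09 log2 where Fas differed by -0.47, and Tnfsf4 by -2.10 where Tnfrsf4 differed by -0.98. Tnfsf10 differed by -2.28 where Tnfrsf10b differed by -0.55, and Cd40lg by -1.31 where Cd40 differed by 0.51. The other pairs of this kind were Tnfsf11 with Tnfrsf11a and with the decoy Tnfrsf11b, and Tnfsf10 with the same decoy.

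In 6 pairs only the receptor passed. Tnfsf9 differed by -0.12 log2 where its receptor gene Tnfrsf9 differed by -1.64, and Tnfsf18 by 0 where Tnfrsf18 differed by -1.17. In the other direction, Tnfrsf25 was 1.71 log2 higher beside an equal Tnfsf15. Tnfrsf13b was 2.64 higher beside a Tnfsf13b difference of -0.39, and Tnfrsf1b was 1.10 higher beside 0.51 for Tnf and 0.98 for Lta. Tnfsf15 and Tnfsf18, like Tnfrsf11a above, were equal on all arrays, which cannot be told from no detected signal. In Th22 against Th0, 6 pairs had only the ligand and 2 only the receptor past 2-fold. In Th17 against Th22, the numbers were 4 and 5. In neither of these comparisons did both genes of a pair pass as deposited. After quantile normalization, Cd40lg and Cd40 both passed in Th17 against Th22, in opposite directions (-1.28 and 1.17 log2). Tnfsf13b and Tnfrsf13b then also passed, both higher (1.12 and 1.91 log2). Ligands such as those of OX40, GITR and RANK can also be made by the presenting cells or other tissues, and the purified T cells give no measure of these.

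**Figure D3:**
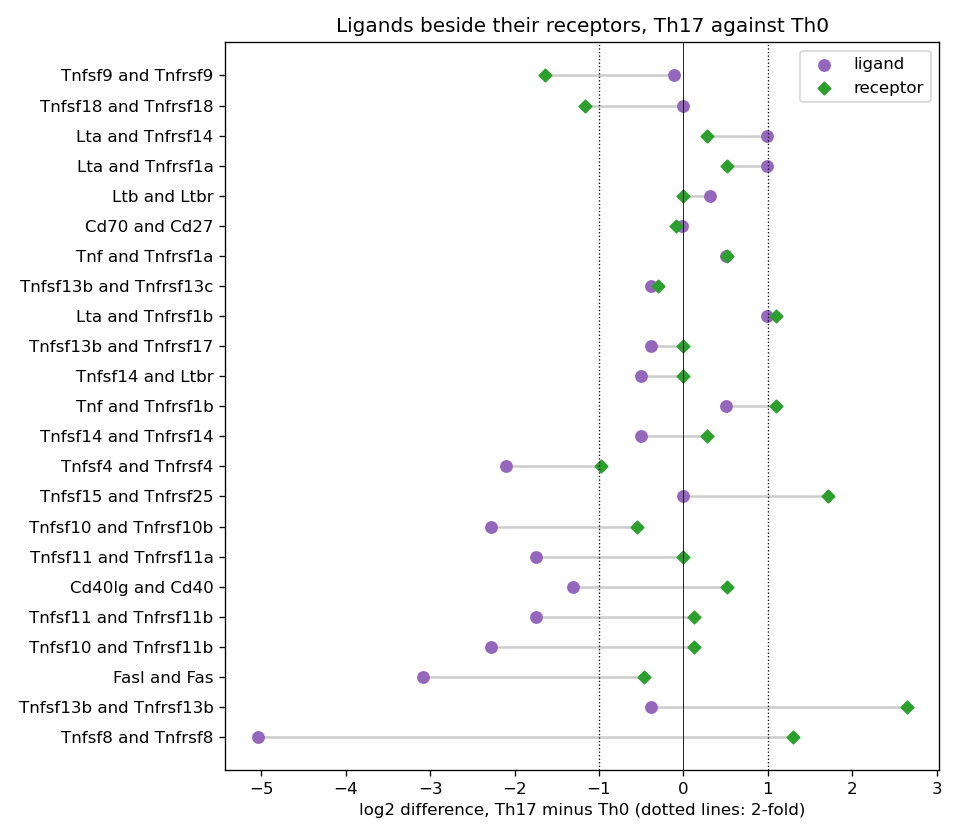
Difference between the Th17 and Th0 arrays (log2, Th17 minus Th0) for the ligand (circle) and the receptor (diamond) of 23 pairs, 1 array per condition. Grey lines join the genes of a pair and dotted lines mark 2-fold. Tnfsf8 and Tnfrsf8 lie furthest apart, at -5.04 and 1.30, and are the only pair with both genes outside the dotted lines.

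Several members are direct neighbours among protein-coding genes, and neighbours did not share a pattern throughout. Tnfsf8 lies next to Tnfsf15, which was equal on all 3 arrays. Fasl and Tnfsf4 flank Tnfsf18, also equal on all arrays, and both flanking genes were highest in Th0. Equal values cannot be told from no detected signal, so Tnfsf15 and Tnfsf18 show neither a shared pattern nor the lack of one. Tnfrsf4 and Tnfrsf18 are adjacent and differed alike, by -0.98 and -1.17 log2 in Th17 against Th0. Tnfrsf1b and Tnfrsf8 are adjacent too, and both were higher in Th17 than in Th0, by 1.10 and 1.30 log2. They differed in Th22 against Th0, where Tnfrsf8 was 1.04 higher and Tnfrsf1b was -0.09. Ltb, Tnf and Lta lie side by side, with differences of 0.32, 0.51 and 0.98 log2 in Th17 against Th0.

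Promoter sequences, from 250 bases before to 50 bases after a transcription start in RefSeq (build GRCm38.p6), were found for 31 of the 39 members, in 35 windows. They are printed for the ligand with the widest range and its receptor, for the ligand lowest in Th22 against Th0, and for the receptor highest in Th22 against Th0. Capitals mark matches on either strand to the letters TTCNNNGAA (a STAT-type motif, relevant to IL-6 signalling), GGG, any 5 bases and CC (NF-κB type), TGANTCA (AP-1 type) or GTCTAGAC (Smad type, relevant to TGFβ signalling), and matches that overlap run together.
Tnfsf8, chr4:63861235-63861534, minus strand: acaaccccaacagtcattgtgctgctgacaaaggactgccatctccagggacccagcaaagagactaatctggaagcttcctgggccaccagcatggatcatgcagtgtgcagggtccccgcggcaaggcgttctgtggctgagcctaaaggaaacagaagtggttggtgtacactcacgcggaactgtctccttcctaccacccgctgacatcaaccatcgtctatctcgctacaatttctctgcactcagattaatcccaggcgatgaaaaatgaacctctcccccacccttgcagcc
Tnfrsf8, chr4:145315115-145315414, minus strand: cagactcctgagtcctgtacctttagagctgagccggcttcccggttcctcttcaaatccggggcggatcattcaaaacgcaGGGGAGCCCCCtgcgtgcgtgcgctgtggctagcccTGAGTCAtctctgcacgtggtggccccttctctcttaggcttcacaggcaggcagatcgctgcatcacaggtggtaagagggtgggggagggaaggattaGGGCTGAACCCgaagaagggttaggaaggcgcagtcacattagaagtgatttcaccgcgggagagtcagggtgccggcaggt
Fasl, chr1:161788446-161788745, minus strand: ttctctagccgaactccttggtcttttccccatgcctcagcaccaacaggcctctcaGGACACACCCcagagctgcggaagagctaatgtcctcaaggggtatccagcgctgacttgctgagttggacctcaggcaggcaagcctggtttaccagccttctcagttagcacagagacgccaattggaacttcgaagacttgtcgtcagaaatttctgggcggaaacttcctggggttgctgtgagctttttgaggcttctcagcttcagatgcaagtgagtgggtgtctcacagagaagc
Tnfrsf25, chr4:152116093-152116392, plus strand, the later of its 2 windows: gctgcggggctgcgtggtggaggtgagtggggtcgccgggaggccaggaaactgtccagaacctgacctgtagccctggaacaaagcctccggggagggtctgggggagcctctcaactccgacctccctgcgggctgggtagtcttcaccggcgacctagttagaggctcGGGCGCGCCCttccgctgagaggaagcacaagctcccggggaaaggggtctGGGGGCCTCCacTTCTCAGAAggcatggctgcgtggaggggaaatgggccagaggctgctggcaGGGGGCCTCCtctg

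The Tnfsf8 window held none of these motifs, while that of Tnfrsf8 held 4 NF-κB matches, overlapping in pairs, and 1 AP-1 match. The Fasl window held 1 NF-κB match, and the Tnfrsf25 window held 1 STAT match and 3 NF-κB matches. Of the 2 Tnfrsf25 windows, the one with more STAT matches was printed, so its STAT match came with that choice. Over the members, 9 of 35 windows held the STAT motif (25.7%), against 8.30% of 32851 windows of all genes. These were windows of Ltb, Lta, Fas, Tnfrsf1a, Tnfrsf1b, Tnfrsf9, Tnfrsf18, Tnfrsf19 and Tnfrsf25. Only Tnfrsf25 among these genes passed 2-fold in Th22 against Th0, and a link between motif and difference was not tested. The NF-κB letters were found in 62.9% of member windows and 50.8% of all windows, the AP-1 letters in 20% and 7.81%, and the Smad letters in 0% and 0.213%. A match describes the letters in this window and shows no binding.

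The pathway below the receptors was read from lists of adaptor, death signalling and NF-κB genes. Of 14 measured genes for adaptors and death signalling, 2 were lower in Th17 than in Th22 by 2-fold or more and 0 were higher. That is 14.3% of the list, against 2.61% of all genes past 2-fold in this comparison. The median difference of the list was -0.01 log2. Mlkl, which encodes the executor of necroptosis, stood at 0.53 in Th0, 0 in Th22 and -1.98 in Th17, and was 3.95-fold lower in Th17 than in Th22 and 5.69-fold lower than in Th0. Traf1, which encodes an adaptor of TNFR2 and 4-1BB signalling, was 2.04-fold lower in Th17 than in Th22 and 1.60-fold lower than in Th0, but only 1.77-fold lower than in Th22 after quantile normalization. Traf5, 1.27-fold higher in Th17 than in Th22 as deposited, was 2.07-fold higher after quantile normalization. Of 21 measured NF-κB pathway genes, 1 passed 2-fold, in Th17 against Th0 only (4.76%, near the 3.03% of all genes). This was Tnip2, which encodes a partner of the inhibitor A20, at -0.89, 0 and 0.83, and it was 3.30-fold higher in Th17 than in Th0. Tnfaip3, the gene of A20 itself, differed by at most 0.08 log2. None of 4 genes for shedding of surface proteins (Adam10, Adam17, Rhbdf2 and Mmp9) passed 2-fold as deposited. After quantile normalization, Adam10 was 2.76-fold higher in Th17 than in Th22 and 2.24-fold lower in Th22 than in Th0.

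Among 7 measured family genes outside the list of members, Tnfrsf23 and Tnfrsf26 passed 2-fold. In Th17 against Th0 they made up 28.6% of this list, where 3.03% of all genes passed. With Tnfrsf22, they form a row of adjacent mouse genes, of which Tnfrsf22 and Tnfrsf23 encode decoy receptors for TRAIL. Tnfrsf23 stood at -0.69 in Th0, 0 in Th22 and 1.66 in Th17, and was 5.07-fold higher in Th17 than in Th0. Tnfrsf26 stood at -0.85, 0 and 1.10 and was 3.88-fold higher, while Tnfrsf22 stood at -0.40, 0 and 0.27, within 2-fold. In these genes the order of the arrays was the reverse of that of Tnfsf10, the TRAIL gene.

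Quantile normalization narrowed several differences that involve the Th17 array and widened those between Th22 and Th0. Over all 19938 genes, it left 202 higher and 218 lower by 2-fold in Th17 against Th0 (from 293 and 311). The counts were 197 and 202 in Th17 against Th22 (from 220 and 300), and 150 and 158 in Th22 against Th0 (from 109 and 52). In Th17 against Th0 it kept 8 of 13 members past 2-fold (Fasl, Tnfsf4, Tnfsf8, Tnfsf10, Tnfsf11, Tnfrsf8, Tnfrsf13b and Tnfrsf25) and left Cd40lg, Tnfrsf1b, Tnfrsf9, Tnfrsf12a and Tnfrsf18 under it. Tnfsf8 was then 14.5-fold lower rather than 32.9-fold. In Th17 against Th22 it kept 3 of 8, Cd40lg, Tnfsf8 and Tnfrsf13b, with Tnfsf8 at -3.00 log2, Tnfrsf13b at 3.75-fold higher and Tnfrsf9 just short of 2-fold at 1.98-fold lower. It also brought Cd40 (2.25-fold) and Tnfsf13b (2.17-fold) past the threshold, both higher in Th17. In Th22 against Th0 all 6 members stayed past 2-fold and Tnfsf13b joined them at 3.09-fold lower. None of the 27 differences of members past 2-fold as deposited could change direction. Every probe set has a median of 0 over the arrays, and this normalization moves no value across 0. Beside the lower ligands and costimulatory receptors of the Th17 array, Cd8b1 was 2.61-fold and the invariant chain gene Cd74 3.93-fold lower in Th17 than in Th0, the only genes past 2-fold among 8 markers of CD8 and NK cells and 7 class II presentation genes (after quantile normalization Cd8b1 was 1.96-fold lower and Eomes, 1.73-fold lower as deposited, was 2.11-fold lower), and their part in the result was not tested.

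**Figure D4:**
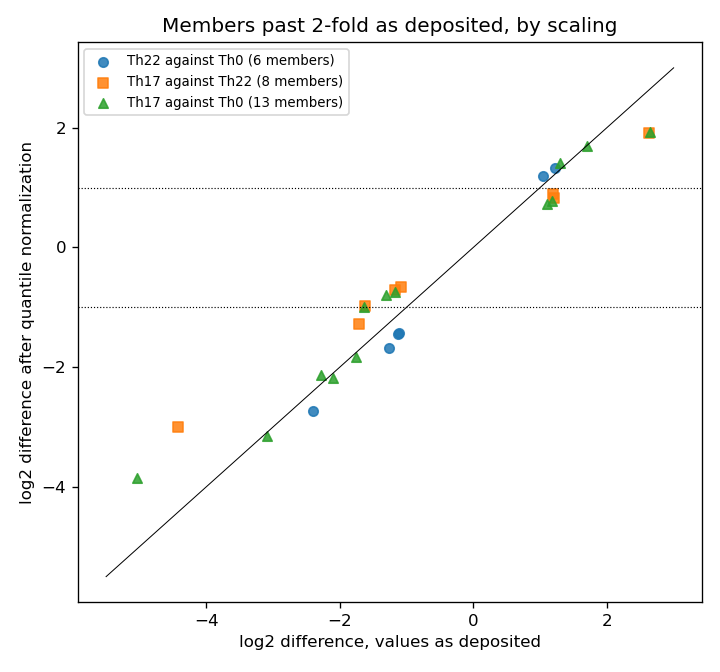
Differences of the members at least 2-fold apart as deposited (horizontal axis, log2) against the same differences after quantile normalization (vertical axis, log2), for the 3 comparisons. The diagonal marks equal values and dotted lines mark 2-fold. No point could cross 0 under this normalization, and Tnfsf8 in Th17 against Th0 moves from -5.04 to -3.85.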

How the data were processed

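Total RNA of 3 mouse CD4 T cell samples, grouped by the T-helper subset in the labels, was hybridised to 1 biotin-labelled Affymetrix array each. The deposited table held 28853 probe sets, with values taken as log2 differences from each probe set's median over the arrays, which was 0 for all 28853. No source used here states the probe summary, normalization, software, log base or direction, so base 2 was taken, with larger values read as more RNA. Probe sets were named from the platform annotation, with symbols updated by Entrez identifier (21698 of 21789 with 1 symbol). Another 1621 with several symbols and 5443 unnamed were left out. Probe sets of a gene were averaged, and arrays were subtracted in Python 3.11.15 with pandas 2.3.3. Genes at least 2-fold apart were counted, and the count was tested on simulated data. The named genes were the 39 members and, from the other lists, genes past 2-fold, plus a few list genes named for context after their values were seen. The motifs and the promoters printed were also chosen after values were seen. Members and lists were chosen with earlier results of these data known. Alternatives were quantile normalization, another probe rule, shared probe sets, a 1.5-fold threshold, natural logs and another centre.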

Additional observations from a re-analysis of the deposited data

How the results depend on the processing

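Quantile normalization was the only alternative that altered any of the 27 differences of members past 2-fold. All 27 kept their direction under it, which it could not change, and 10 came under 2-fold. Quantile normalization left 3 members higher (against 5) and 5 lower (against 8) in Th17 against Th0, and 2 lower (against 5) in Th17 against Th22. Counts over all genes fell too, to 202 higher and 218 lower in Th17 against Th0 and 197 and 202 in Th17 against Th22. Quantile normalization raised the genes lower in Th22 than in Th0 from 52 to 158. It also gave 1 pair past 2-fold in opposite directions and 1 in the same direction in Th17 against Th22 (against 0 and 0), 1 adaptor gene (against 0) and 1 shedding gene (against 0) in Th22 against Th0, and 1 family gene outside the members (against 2) and 1 shedding gene (against 0) in Th17 against Th22. The cause was not tested.

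A lower threshold counts more genes by construction. At 1.5-fold, 595 genes were higher and 665 lower in Th17 against Th0 (from 293 and 311), 422 and 671 in Th17 against Th22 (from 220 and 300), and 319 and 161 in Th22 against Th0 (from 109 and 52). Members in Th17 against Th22 numbered 5 higher and 12 lower, from 3 and 5. Pairs past it in the same direction numbered 2 in Th17 against Th0 and 4 in Th17 against Th22, and pairs in opposite directions 1 in Th17 against Th22 and 1 in Th22 against Th0 (each from 0). NF-κB genes numbered 4, 3 and 2 in Th17 against Th0, Th17 against Th22 and Th22 against Th0 (from 1, 0 and 0), adaptors 3 in Th17 against Th0 (from 1), family genes outside the members 2 in Th22 against Th0 (from 0), and shedding genes 1 in Th17 against Th22 (from 0).

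If the values are natural logs, 2-fold is a smaller difference in the deposited values, and 490 genes were higher and 531 lower in Th17 against Th0, 340 and 519 in Th17 against Th22, and 233 and 110 in Th22 against Th0. Members in Th17 against Th22 then numbered 5 higher and 10 lower, pairs in the same direction 2 in Th17 against Th0 and 3 in Th17 against Th22, and pairs in opposite directions 1 in Th17 against Th22. NF-κB genes numbered 3, 3 and 2 in the order above, adaptors 2 in Th17 against Th0, family genes outside the members 1 in Th22 against Th0 and shedding genes 1 in Th17 against Th22.

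The other alternatives are no check on the members. Each of the 37 measured members has 1 probe set, so the other probe rule cannot change it, the other centre is 0 on all 3 arrays, and a lower threshold or natural logs can only add calls. Counting shared probe sets added no member past 2-fold. No paired analysis was possible because each condition had 1 array, which also leaves no replicate to leave out. Signal over background is not known from centred values.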
